A study of Mus musculus with 89 samples.

Results

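The genes described here are 9 products of the Paneth cell granule: Lyz1, Mmp7, Itln1, Defa17, Defa24, AY761184, AY761185, Ang4 and Ang5. They were chosen by name, and all 9 had a row in both deposited tables, among the 27538 genes of the clump table and the 23379 genes of the single cell table. The study dissociated mouse jejunum incompletely with EDTA, so that small clumps of neighbouring epithelial cells stayed together, and sequenced them, and separately prepared single cells, by MARS-seq, in which a unique molecular identifier (UMI) marks every captured 3′ end. All animals were untreated C57BL/6 males on regular chow with no genotype contrast, and every plate is labelled 3 months of age except 3 plates of single cells from mouse 2, labelled 4 months. Clumps were sorted by DNA content as 4n (pairs, mice 1 to 5), above 4n (larger clumps, mice 1, 4 and 5) or above 2n (mouse 6). Single cells came from mice 1 to 4 under the gate labels EpcamLow_Cd24high, Epcam_Cd24low, CD24, Epcam, CD45Epcam, CD54Epcam and onlyEpcam, or with no gate label. The clump table held 38454111 UMIs in 17162 wells of 45 plates while 39137313 UMIs in 16850 wells of 44 plates made up the single cell table, and the plates shared 1 set of well barcodes. Mice with the same number in the clump and the single cell tables were not taken to be the same animal. The single cell plates of mouse 2 were summed as 1 mouse whatever their age label, and whether they came from 1 animal is not known.

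Paneth cells sit at the base of the small intestinal crypts, between the stem cells, and store antimicrobial proteins in large granules that they release into the crypt lumen. Alpha-defensins are small cationic peptides made as precursors, and in the mouse the protease matrilysin (Mmp7) cleaves them to their active form. Lysozyme (Lyz1) degrades the bacterial cell wall, intelectin-1 (Itln1) is a lectin that binds microbial glycans, and Ang4 and Ang5 belong to the angiogenin family of secreted ribonucleases. In GRCm38, Defa17 (chr8:21655780-21656735, + strand), AY761184 (chr8:21702519-21703645, - strand), Defa24 (chr8:21734494-21735471, + strand) and AY761185 (chr8:20943694-20944710, - strand) lie in the alpha-defensin cluster within 792 kb, each as a protein-coding gene of 2 exons. Ang4 (chr14:51763878-51773590, - strand) and Ang5 (chr14:43957069-43963072, + strand) lie on chromosome 14, 7801 kb apart. Lyz1 is at chr10:117287797-117292868 (- strand), Mmp7 at chr9:7692090-7699585 (+ strand) and Itln1 at chr1:171518122-171535294 (- strand).

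Close copies limit what a UMI can say about a single member. The longest coding transcripts of Defa17 and Defa24 were identical at 95.5% of 397 aligned bases, those of Ang4 and Ang5 at 90.2% of 686, those of AY761184 and AY761185 at 78.5% of 438, and those of Lyz1 and its macrophage relative Lyz2 at 96.0% of 1262. How the authors' counting shared reads between such copies is not given in the sources used here, so the split within a pair is uncertain.

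The windows of 250 bases before the start of transcription are shown for 5 members, since they are the regulatory sequence of genes whose levels are described together below. They come from RefSeq (GRCm38.p6), which held 6 of the 9 members, and each is written 5′ to 3′ on the strand of its gene, with TATAAA in capitals. They are chr9:7691840-7692089 for Mmp7, chr8:20944749-20944998 for AY761185, chr10:117292869-117293118 for Lyz1, chr14:51773591-51773840 for Ang4 and chr14:43956819-43957068 for Ang5.
Mmp7: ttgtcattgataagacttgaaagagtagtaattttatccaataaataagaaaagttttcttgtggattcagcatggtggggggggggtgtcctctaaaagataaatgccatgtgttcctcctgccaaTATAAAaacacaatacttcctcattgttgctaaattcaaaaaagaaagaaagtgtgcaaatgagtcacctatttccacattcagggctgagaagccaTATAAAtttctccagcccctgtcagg
AY761185: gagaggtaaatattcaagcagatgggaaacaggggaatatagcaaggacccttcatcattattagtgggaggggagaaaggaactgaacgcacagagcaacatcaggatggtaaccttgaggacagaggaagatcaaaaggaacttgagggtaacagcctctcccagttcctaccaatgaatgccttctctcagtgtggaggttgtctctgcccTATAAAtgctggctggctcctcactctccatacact
Lyz1: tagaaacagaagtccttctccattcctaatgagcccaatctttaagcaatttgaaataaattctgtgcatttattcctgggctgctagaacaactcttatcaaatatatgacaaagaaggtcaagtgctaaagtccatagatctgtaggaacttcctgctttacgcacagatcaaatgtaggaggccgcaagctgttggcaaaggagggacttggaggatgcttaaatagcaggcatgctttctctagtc
Ang4: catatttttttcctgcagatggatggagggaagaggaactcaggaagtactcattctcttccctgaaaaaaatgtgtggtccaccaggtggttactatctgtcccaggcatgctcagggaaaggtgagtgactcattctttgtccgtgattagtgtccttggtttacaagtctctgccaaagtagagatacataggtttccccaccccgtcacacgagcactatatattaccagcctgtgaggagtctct
Ang5: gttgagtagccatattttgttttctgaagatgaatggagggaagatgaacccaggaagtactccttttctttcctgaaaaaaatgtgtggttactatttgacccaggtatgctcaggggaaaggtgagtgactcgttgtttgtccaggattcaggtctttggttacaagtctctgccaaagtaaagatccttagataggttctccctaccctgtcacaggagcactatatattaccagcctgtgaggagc

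TATAAA, searched on both strands, stood 26 and 123 bases before the start of Mmp7 and 36 bases before that of AY761185. The RefSeq start of AY761185, from which the 36 bases are counted, lies 38 bases upstream of the gene start given above. TATAAA was in 2 of the 6 members with a window and in 12.4% of 32851 mouse windows of the same length. CTTTGA and the longer CTTTGAT that contains it, letters close to those bound by Wnt-responsive TCF factors, were in none of the 6 windows and in 13.8% and 3.21% of all windows. The Ang4 and Ang5 windows were identical at 89.3% of 233 aligned bases.

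Nearly all member UMIs lay in a few wells. A well is called Paneth-rich here when it held at least 100 UMIs of 9 Paneth cell markers of the study that are not members (among them Defa3, Defa21, Gm14851 and the pentraxin Mptx2). Among the clumps within the study's limits, applied here to counts from which empty wells had not been subtracted (6004 from mice 1 to 5 and 278 from mouse 6), 92 were Paneth-rich, and they held 87.0% of the 367374 member UMIs of the clump table. In these 92 clumps the members made up a median of 17.7% of all UMIs, from 1.97% to 28.0%. In the 3527 kept clumps with no marker UMI the median was 0. Of the wells sorted for single cells, 26 were Paneth-rich, and 24 of them exceeded the study's limits of 7000 UMIs or 1500 genes for a single cell. Those 24 wells held 223879 member UMIs, 91.2% of the 245562 in that table, so the cell filter removed most member UMIs before any cell class was formed.

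Paneth-rich clumps were uneven between animals. Mouse 1 gave 24, mouse 3 gave 20, mouse 4 gave 45, mouse 5 gave 2 and mouse 6 gave 1, while mouse 2 gave 0 of 220 crypt clumps, which allows a share of up to 1.66% (exact binomial interval at 95%, counting error only). Among crypt clumps, and with the landmark limit explained below left aside, the share was 7.64% (4.85% to 11.3%) above 4n and 1.31% (0.159% to 4.64%) at 4n in mouse 1. It was 2.31% (1.66% to 3.12%) above 4n and 1.24% (0.338% to 3.14%) at 4n in mouse 4, and 4.73% (2.91% to 7.21%) at 4n in mouse 3. In mouse 5 the order was the reverse, with 1 of 20 at 4n (5.0%, 0.127% to 24.9%) and 1 of 140 above 4n (0.714%, 0.0181% to 3.92%). The intervals of the 2 gates did not overlap in mouse 1 and overlapped in mice 4 and 5, and each describes the wells of 1 animal. Mouse 2 and mouse 3 were sorted at 4n alone.

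Within Paneth-rich wells the 9 members kept a steep order of UMI counts, which are 3′ tags and are not divided by length. Defa24 was the most abundant, at a median of 43.3% of member UMIs per clump, followed by Defa17 at 28.3% and AY761184 at 11.1%. Lyz1 followed at 7.34%, Itln1 at 4.22% and Ang4 at 1.79%. Mmp7 (0.528%), Ang5 (0.424%) and AY761185 (0.0946%) were the least abundant. The 26 Paneth-rich wells of the single cell table gave 41.1% for Defa24, 27.7% for Defa17, 13.9% for AY761184, 7.88% for Lyz1, 4.58% for Itln1 and 1.42% for Ang4, the same order, and there AY761185 (0.717%) stood above Mmp7 (0.541%) and Ang5 (0.375%). The ranges of neighbours in this order overlapped between wells: Defa24 ran from 25.5% to 60.6% and Defa17 from 16.5% to 51.0%. Lyz1 ran from 0.654% to 26.9%.

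**Figure D1:**
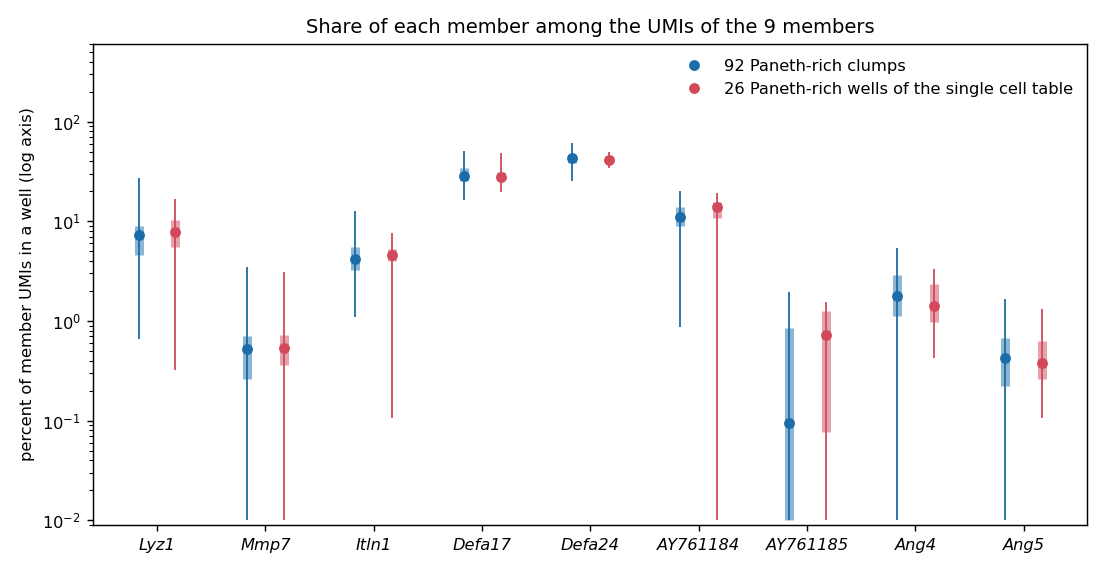
Percent of the member UMIs of a well that belong to each member (log axis, values below 0.01 drawn at 0.01), in 92 Paneth-rich clumps (blue) and 26 Paneth-rich wells of the single cell table (red). Points are medians, thick bars the interquartile ranges and thin lines the full range. Defa24, Defa17 and AY761184 lead in both tables, and AY761185 has the widest middle range.

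The order of the 6 most abundant members held in each animal with at least 20 Paneth-rich clumps, and that of the other 3 did not. Defa24 was 45.5% of member UMIs in mouse 1, 47.0% in mouse 3 and 40.2% in mouse 4, and Lyz1 was 8.27%, 8.30% and 7.56%. Across the 92 clumps, which share plates and mice, the strongest Spearman correlation of 2 members' CPM (UMIs of a gene per 1000000 UMIs of the well) was that of Ang4 and Ang5 (0.823), the pair of close copies. AY761184 and Defa24 gave 0.665, Defa17 and Defa24 0.637, and Mmp7 and Itln1 0.574. AY761185 gave 0.0946 to 0.249 with the other members.

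Members also met in clumps at equal depth. After each of the 3251 crypt clumps was thinned to 500 UMIs, 896 (27.6%) held a Defa24 UMI, 550 (16.9%) a Defa17 UMI and 264 (8.12%) a Lyz1 UMI. At least 2 members were found in 600 clumps (18.5%), at least 5 in 94, and all 9 in none. Lyz1 was present in 22.5% of the 896 clumps with Defa24 and in 2.63% of the 2355 without, and Ang4 in 7.59% and 0.764%. In the 58 Paneth-rich crypt clumps Defa17 and Defa24 were each found in 58, AY761184 in 55, Lyz1 in 53, Itln1 in 51, Ang4 in 34 and Mmp7 in 22. Without these 58 clumps Lyz1 was still in 17.8% of clumps with Defa24 and at least 2 members were found in 542 of 3193 clumps. The median Spearman correlation over pairs of members was 0.415 in mouse 1 (428 clumps), 0.340 in mouse 3 (415), 0.195 in mouse 4 (2053), 0.262 in mouse 5 (137) and -0.00557 in mouse 2 (218), where the values of mice 5 and 2 rest on 21 and 10 of the 36 pairs. Without Paneth-rich clumps it was 0.185 in mouse 1 and 0.159 in mouse 3 (28 pairs each), 0.0895 in mouse 4 (36 pairs) and 0.271 in mouse 5 (15 pairs). These values describe wells, not cells, and what the wells of a plate share was not tested.

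Clumps were then placed along the crypt-villus axis by enterocyte landmark genes, none of which is a member, and member UMIs were summed per mouse and zone. The comparison asks where along the axis these genes are found. The sums covered 3251 crypt, 1821 mid villus and 811 villus tip clumps of 5 mice, with 346613 to 18868631 UMIs per crypt sum and 76801 to 757892 per villus tip sum. In such sums fewer Paneth cells and less RNA per cell cannot be told apart. The 2% of clumps with the lowest landmark share could not be placed reliably and were left out, and this removed 33 of the 91 Paneth-rich clumps of mice 1 to 5. The other 58 were all placed in the crypt, as were all 91 with no such limit.

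Defa24, Defa17, AY761184, Lyz1 and Itln1 were lower in both villus zones than in the crypt (edgeR quasi-likelihood test, adjusted p under 0.05). The background was 30.0% of 7053 genes lower at the villus tip and 22.5% lower in the mid villus. AY761185 and Ang5 did not pass the filter on low counts. Ang4 and Mmp7 reached the limit of the filter (13.2 CPM) in 4 of 5 crypt sums. At each villus position they did so in 1 of 5 sums. They passed it mainly through the crypt, so they had to differ and are not counted. Of all genes, 1748 were higher and 2116 lower at the tip and 1440 and 1590 in the mid villus, and with DESeq2 size factors in place of TMM scaling 1328 and 2596, and 903 and 2120, with the median of all genes shifted to -0.40 and -0.26. Over all genes tested the median log2 difference was -0.07 at the tip and 0.07 in the mid villus. For all 7 members tested, Ang4 and Mmp7 included, it was -3.26 and -2.99. With no limit on the landmark share, which keeps all 91 Paneth-rich clumps, it was -4.14 and -3.93.

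Defa24 stood at 5833, 51.7, 3420, 3297 and 1624 CPM in the crypt sums of mice 1 to 5, at 244, 56.3, 377, 1186 and 15.2 in the mid villus and at 276, 75.9, 290, 578 and 91.1 at the villus tip. The crypt was the highest zone in 4 mice, and in mouse 2 the tip was, so the zones overlapped. Its log2 difference was -3.16 ± 0.92 (SE over 5 mice, edgeR adjusted p = 0.0065) at the tip and -2.84 ± 0.89 (adjusted p = 0.0141) in the mid villus. Defa17, its close copy, stood at 3344, 7.56, 1951, 2341 and 710 CPM in the crypt, and at the tip at 96.5, 14.7, 110, 265 and 39.1. That was a log2 difference of -3.74 ± 1.10 (adjusted p = 0.0073) at the tip and -3.42 ± 1.05 (adjusted p = 0.0126) in the mid villus. AY761184 ranged from 5.04 to 1703 CPM in the crypt and from 0 to 123 at the tip, with -3.66 ± 1.15 (adjusted p = 0.0112), and in the mid villus the difference was -2.99 ± 1.04 (adjusted p = 0.0252).

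Lyz1 stood at 1128, 6.30, 773, 561 and 92.3 CPM in the crypt of mice 1 to 5 and at 68.9, 0, 59.4, 75.8 and 0 at the tip. The crypt was higher in every mouse, but mouse 2 lay below the villus values of mice 1, 3 and 4. The log2 difference was -3.26 ± 1.01 (adjusted p = 0.0098) at the tip and -2.99 ± 0.93 (adjusted p = 0.0129) in the mid villus. Itln1 showed the smallest difference of the 7 at both positions, -2.19 ± 0.76 (adjusted p = 0.0196) and -2.41 ± 0.71 (adjusted p = 0.0092). It stood at 435, 3.78, 350, 461 and 113 CPM in the crypt and, in mouse 2, was higher in the mid villus (16.9 CPM) and at the tip (29.4 CPM).

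The protease Mmp7 was a low-abundance member, at 64.8, 7.56, 57.5, 69.9 and 23.1 CPM in the crypt and 9.19, 2.45, 2.64, 47.4 and 0 at the tip. Its log2 difference was -2.32 ± 0.81 at the tip and -2.94 ± 0.65 in the mid villus. The study used Mmp7 as a crypt landmark for goblet, tuft and enteroendocrine cells, a choice made on these clumps, so its direction is not independent of them. Ang4 fell by 3.69 ± 0.84 on the log2 scale at the tip and by 3.45 ± 0.69 in the mid villus. It went from 294, 10.1, 139, 171 and 54.8 CPM in the crypt to at most 14.5 at the tip. For Mmp7 and Ang4 no p is given, since they passed the filter mainly through the crypt. Ang5 stood at 2.52 to 88.2 CPM in the crypt and 0 to 6.60 at the tip. AY761185 had 1113 UMIs in the crypt sums, 1 in the mid villus and 0 among 1566224 villus tip UMIs, which makes it at least 22.9-fold lower there (3 counts over the pooled group as the floor).

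**Figure D2:**
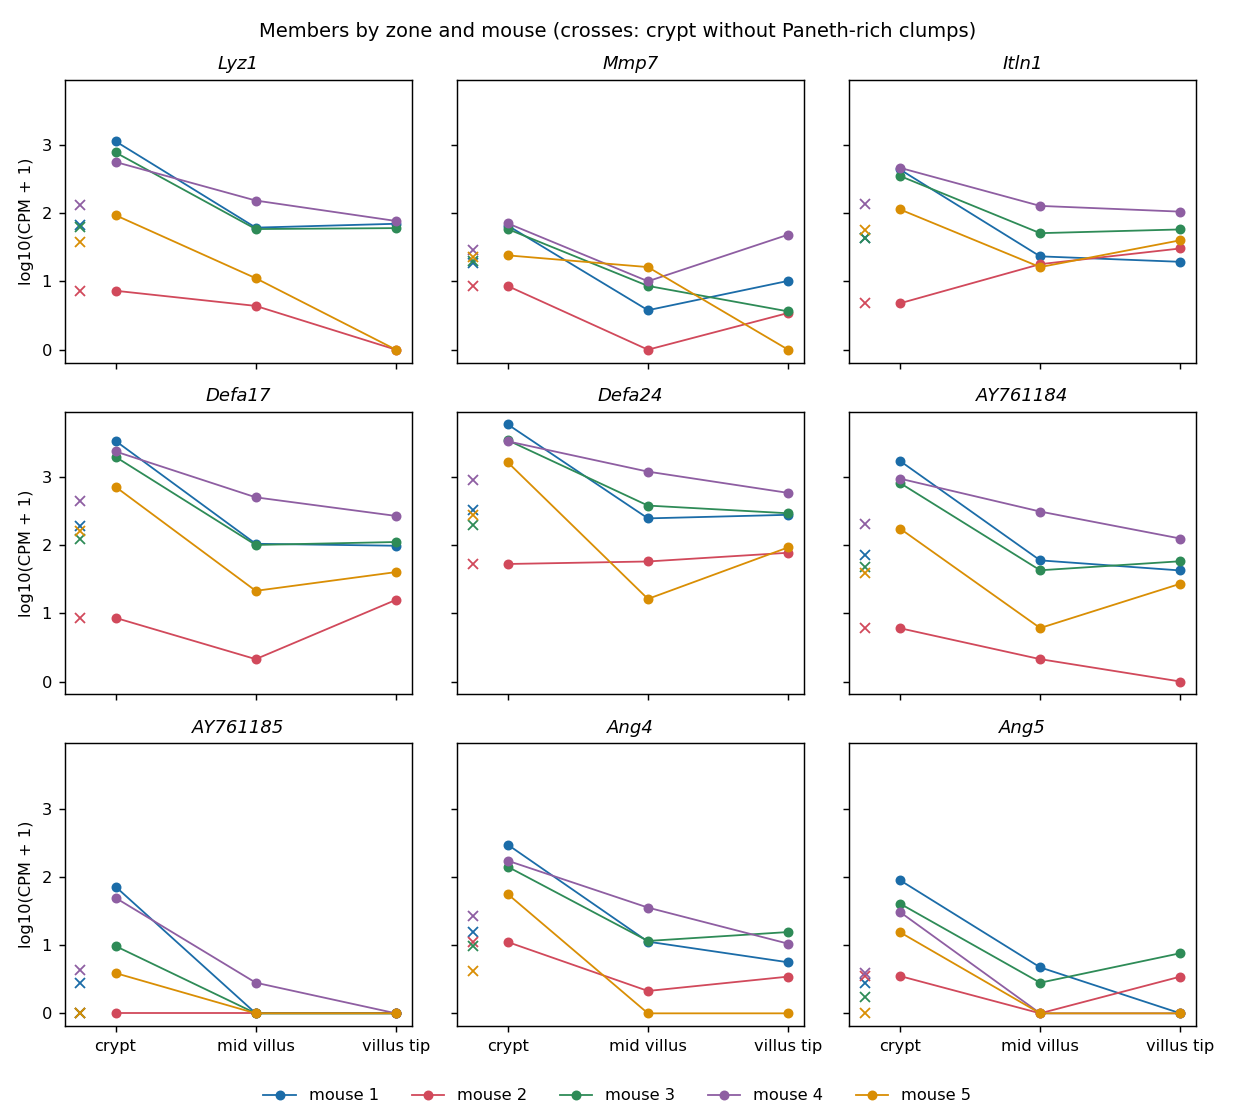
Level of each member, as log10(CPM + 1), in UMI sums of the crypt, mid villus and villus tip clumps of 5 mice, with 1 line per mouse. Crosses to the left give the crypt of the same mouse without its Paneth-rich clumps. For Defa24 the crosses of mice 1, 3 and 4 stand at 320, 195 and 906 CPM, below crypt levels of 5833, 3420 and 3297, and mouse 2, which had no Paneth-rich clump, stands at 51.7 either way.

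The sums were also made without the 58 Paneth-rich clumps. These clumps were picked for Paneth markers, most of them of the defensin family of 4 members, and all lay in the crypt, so leaving them out had to lower the crypt, and what follows is a description. Without them, 0 of 6 testable members passed at the villus tip (29.5% of genes were lower). The log2 differences there were -0.96 to 0.04 (adjusted p = 0.317 to 0.965). In the mid villus Mmp7 alone, which is not counted above, was lower (-1.60 ± 0.62, adjusted p = 0.0437, with 21.8% of genes lower). Defa24 in the crypt then stood at 320, 51.7, 195, 906 and 270 CPM, within the range of its villus values. Leaving out whole animals also mattered, here with Ang4 and Mmp7 included. At the tip 4 of 7 members passed without mouse 1 (27.1% of genes lower) and 5 without mouse 3 (25.9%). In the mid villus 2 passed without mouse 1 (21.0%) and 2 without mouse 3 (18.9%), where the members' share was near that of all genes. Those 2 were Ang4 and Mmp7 each time. The alternative without Paneth-rich clumps was chosen after the data were seen.

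Other Paneth cell genes were read in the same test from lists that were, like the members, drawn up with earlier results of these data known, and the study chose 9 of the defensins and pentraxins as markers on its own clumps. Of 18 other alpha-defensins and pentraxins 15 could be tested and 15 were lower at both positions, with a median log2 difference of -4.02 at the tip, among them Defa5 (-5.85 ± 1.30, adjusted p = 8.0e-04) and Mptx2 (-2.62 ± 0.91, adjusted p = 0.0199). Of 14 genes of the secretory program 6 could be tested at the tip. The zinc transporter Slc30a2 was higher there (1.86 ± 0.41, adjusted p = 8.1e-04) and the others did not pass. In the mid villus Slc30a2 was higher too (1.99 ± 0.36, adjusted p = 1.6e-04), and Sox9 (-2.81 ± 0.64, adjusted p = 0.0014) and Clps (-2.25 ± 0.66, adjusted p = 0.0095) were lower. Lyz2 was lower at the tip (-4.55 ± 1.01, adjusted p = 8.4e-04). In Paneth-rich clumps 2 of 6 macrophage markers had a UMI, with a summed level of 971 to 5883 CPM over 4 mice, against 276 to 1279 CPM in all crypt clumps. Immune markers there ranged from 0 to 5.70 CPM. Whether macrophages added to the lysozyme signal was not tested. None of 6 niche signals (Wnt3, Wnt9b, Egf, Tgfa, Dll1 and Dll4) could be tested.

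Larger crypt clumps (above 4n) were compared with pairs (4n), to see whether the members changed with the number of cells in a clump. No gene of 6998 was called in this test (background 0.0%, 174 genes at an unadjusted p under 0.05 and 0 genes called by DESeq2). The 9 members had a median log2 difference of 1.12, and 8 were positive. Without mouse 1 this median was -0.13. Summed over the 9 members, pairs stood at 1378, 94.5, 7548, 919 and 21358 CPM in mice 1 to 5 and larger clumps at 16631, 8059 and 607 CPM in mice 1, 4 and 5. Larger clumps were higher in mice 1 and 4 and lower in mouse 5, where the pairs were 15 clumps with 1 Paneth-rich clump among them. Without Paneth-rich clumps the pairs of mouse 5 held 0 member UMIs.

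With the mouse as a replicate block, since both gates came from the same animals, AY761185 and Mmp7 were higher in larger clumps. Their log2 differences were 4.88 ± 0.96 and 2.28 ± 0.59. Pairs alone would not have brought either past the filter on low counts, so they are not counted as calls. The background was 0.143% of genes higher in that fit. All 9 members were then positive, with a median of 1.65. AY761185 stood at 0, 0, 8.66, 2.61 and 27.2 CPM in pairs and at 93.1, 49.1 and 0 in larger clumps, and its UMIs differed between plates, as described below. Mmp7 stood at 11.6, 7.56, 57.5, 13.1 and 27.2 CPM in pairs and at 81.6, 71.1 and 22.6 in larger clumps.

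Crypt clumps with at least 10 UMIs of the 9 markers were next set against crypt clumps with none. Enough such clumps came from mice 1, 3 and 4 (40, 22 and 493 clumps), and 5 mice gave clumps without. AY761185, Ang5 and Ang4 passed the filter on low counts through the clumps with the markers (without them they reached its limit of 12.5 CPM in 0, 0 and 1 of 5 mice), so they had to differ and are not counted. The other 6 members were higher in clumps with the markers, against a background of 0.458% of 7636 genes. Lyz1 stood at 4885, 9833 and 1534 CPM with the markers and at 6.42 to 33.1 CPM without. Defa24 stood at 25402, 43740 and 8916 against 38.5 to 188, and Mmp7 at 243, 557 and 166 against 6.42 to 20.4. The 2 sets of sums did not overlap for these 3 members. The log2 differences ran from 4.80 ± 0.49 for Mmp7 (adjusted p = 1.2e-04) to 9.00 ± 0.77 for Defa17 (adjusted p = 2.4e-05), with 8.29 ± 0.66 for Lyz1 and 7.19 ± 0.70 for Itln1 (adjusted p = 2.1e-05 and 6.3e-05). Defa24 gave 8.15 and AY761184 8.77. AY761185 stood at 312, 115 and 142 CPM with the markers and had 1 UMI in all clumps without them. Ang5 stood at 394, 516 and 84.9 CPM with the markers and had 9 UMIs without. The 4 defensin members belong to the gene family of most markers, and reads shared between them were not tested. The study itself used AY761184 as a marker.

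The same contrast gave 35 genes in all, each higher. Of the other defensins and pentraxins, which share the family of the markers, 8 of 8 tested were higher, and so were Clps, colipase (7.53 ± 0.61, adjusted p = 2.1e-05), Nupr1, a stress-response regulator (4.37 ± 0.76, adjusted p = 0.0164), and Lyz2 (8.74 ± 0.69, adjusted p = 2.1e-05). The transcription factors Sox9 (1.27 ± 0.54, adjusted p = 0.921) and Xbp1 (-0.44 ± 0.39, adjusted p = 0.941) did not pass, and neither did Spink4 (2.19 ± 0.44, adjusted p = 0.0550). When the limit was raised to 100 marker UMIs, chosen after the data were seen, 83 genes were called and the median of the 6 members counted above went from 8.22 to 10.44. It was 6.89 with at least 5 marker UMIs, 6.44 in thinned clumps, 7.60 with the mouse as a replicate block, 7.53 without mouse 3 and 8.94 without mouse 4.

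Away from the crypt, villus clumps with no Paneth marker UMI were split by goblet markers, to ask whether members accompany goblet cells there. Defa24 alone could be tested. It stood at 141, 731, 323, 497 and 194 CPM in clumps with at least 10 goblet marker UMIs from mice 1 to 5 and at 104, 5.51, 190, 254 and 5.61 CPM in clumps with none. It was higher in each mouse, but the groups overlapped and the difference did not pass (2.11 ± 0.84, adjusted p = 0.560, against a background of 0.931% of 967 genes). Lyz1 gave 20.9 to 104 CPM against 0 to 89.6, and Mmp7 20.9 to 66.4 against 0 to 14.9.

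Single cells that passed the study's filter were clustered without the members into enterocyte-like (2563 cells), immune-like (1568), enteroendocrine-like (247), goblet-like (213) and tuft-like (186) clusters and 1 unnamed cluster (422). None was led by Paneth markers at this resolution. Goblet-like sums were compared with enterocyte-like sums of the same 4 mice. The fit held all 5 named classes, and a gene had to reach 46.3 CPM in 3 sums to be tested. Of the 7 members that passed, Mmp7 and Ang4 did so through the goblet-like sums (outside them they reached it in 2 and 1 of 14 sums), so they had to differ and are not counted. Of the other 5 members 3 were higher in goblet-like cells, against a background of 6.82% of 4647 genes: Lyz1 (3.12 ± 1.06, adjusted p = 0.0309), Defa24 (3.10 ± 1.14, adjusted p = 0.0493) and Itln1 (2.96 ± 0.87, adjusted p = 0.0122). Defa17 (1.99 ± 0.96, adjusted p = 0.150) and AY761184 (-0.47 ± 1.33, adjusted p = 0.857) did not pass.

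Mmp7 stood at 156, 35.6, 150 and 157 CPM in the goblet-like cells of mice 1 to 4 and at 0, 1.29, 0.473 and 0.527 CPM in enterocyte-like cells, with no overlap. Ang4 stood at 87.8, 356, 394 and 0 against 0, 5.79, 1.89 and 0.527, so mouse 4, with 15 goblet-like cells, overlapped. Defa24 stood at 293, 867, 2021 and 1338 against 13.0, 188, 76.6 and 20.0, with no overlap. AY761184 stood at 0, 47.5, 20.0 and 0 against 1.73, 65.6, 14.7 and 1.58, with the groups interleaved. On the plates that held no Paneth-rich well, an alternative chosen after the data were seen, Defa24 stood at 293, 869, 1667 and 1477 CPM in goblet-like cells and at 13.0, 25.5, 7.34 and 19.2 in enterocyte-like cells (5.06 ± 0.71, adjusted p = 1.5e-05, against 7.74% of 3347 genes higher in that fit). Lyz1 stood at 29.3, 77.7, 155 and 92.3 against 0.432, 4.25, 4.59 and 1.75 on these plates. The groups did not overlap for either, and Lyz1 and the other 4 members tested there would not have passed the filter without the goblet-like sums, so their calls are not counted. Over all plates, with DESeq2, Itln1 passed (7.32% of genes were higher), Defa24 (adjusted p = 0.118) and Lyz1 (adjusted p = 0.179) did not, and AY761184 had no p. Without mouse 3 none of Itln1, Defa24 and Lyz1 passed in edgeR (adjusted p = 0.0602, 0.0868 and 0.127). Without mouse 4 Defa24 did not (adjusted p = 0.0804), and without mouse 1 and without mouse 2 Defa17 passed too (adjusted p = 0.0433 and 0.0033). With classes by highest marker sum in place of clusters 2 of the 5 members counted passed (358 of 5913 genes were higher). With the mouse as a replicate block Defa17 passed as well (2.58 ± 0.47, adjusted p = 8.8e-07), against a background of 8.28% of genes higher in that fit. Members of the secretory program rose as well (8 of 9 tested, among them Atoh1, Spdef and Spink4), whereas none of 10 other defensins and pentraxins passed.

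The goblet-like UMIs were unevenly spread over cells. Of 213 goblet-like cells 88 held no member UMI, and 15 cells with at least 20 held 721 of 1218 member UMIs (59.2%). These 15 came from 2 mice and 10 plates and held 426 Defa24 UMIs, 45 marker UMIs and 1 AY761184 UMI. Without them Defa24 stood at 293, 276, 511 and 1338 CPM in goblet-like cells of mice 1 to 4, above the enterocyte-like value of each mouse, and mice 1 and 4 held none of the 15. The highest had 174 member UMIs among 6436, with 121 of Defa24, 26 of Lyz1 and 514 goblet marker UMIs. No doublet caller was run, and whether such wells held more than 1 cell was not tested. A well of mouse 4 above the UMI limit, singled out after its values were seen, held 208 Paneth marker and 182 goblet marker UMIs among 8669, with 446 UMIs each of Defa17 and Defa24, 29 of Mmp7, 3 of Lyz1 and 0 of AY761184.

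The members stood in other proportions in goblet-like cells than in Paneth-rich wells, given here as pooled UMIs relative to Defa24 and with no test. AY761184 was 27.7% of Defa24 in Paneth-rich clumps and 34.8% in Paneth-rich wells of the single cell table, but 0.578% in goblet-like cells on plates with no Paneth-rich well (2 against 346 UMIs). Defa17 was 68.8% in Paneth-rich clumps and 24.9% in these cells. Ang4 was 5.53% in Paneth-rich clumps and 24.9% in goblet-like cells, and Mmp7 1.40% and 12.4%. Mice differed widely: over all plates Ang4 in goblet-like cells was 30.0%, 41.1%, 19.5% and 0% of Defa24 in mice 1 to 4, and Mmp7 53.3%, 4.11%, 7.41% and 11.8%, with 30 to 405 Defa24 UMIs behind each. In enterocyte-like, immune-like, tuft-like and enteroendocrine-like cells on plates with a Paneth-rich well, AY761184 was 28.7%, 28.8%, 32.9% and 34.4% of Defa24, near the Paneth-rich wells, while Ang4 was 1.27% to 3.48%. Defa17 there was 33.5% to 42.2%, below its share in Paneth-rich wells.

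**Figure D3:**
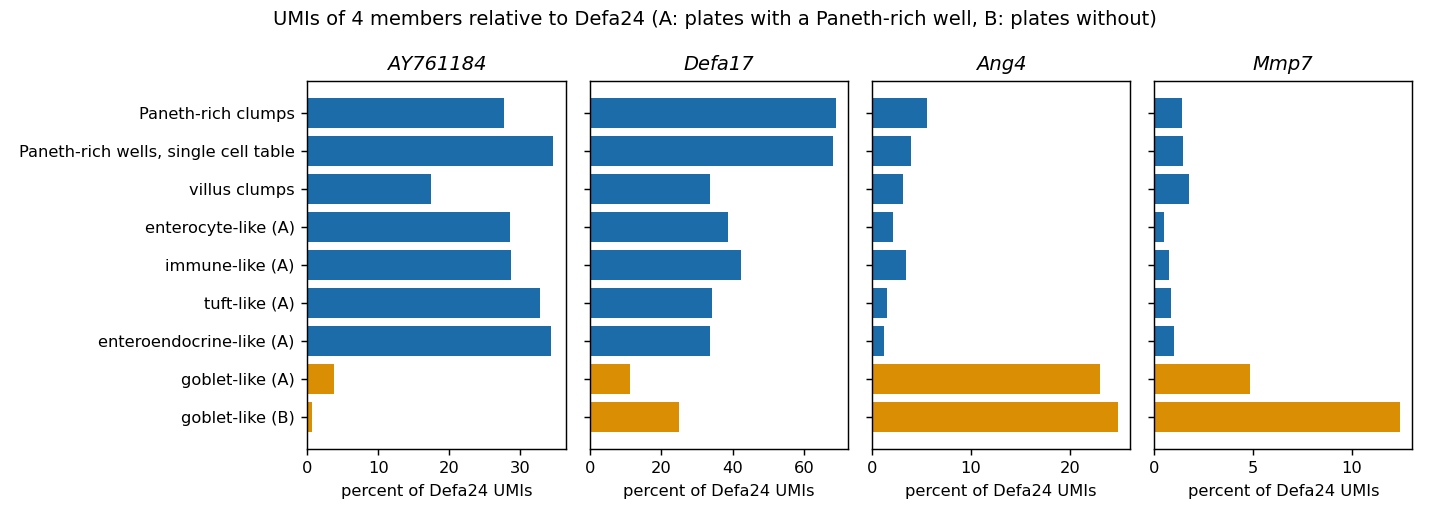
Pooled UMIs of AY761184, Defa17, Ang4 and Mmp7 as a percent of Defa24 UMIs in Paneth-rich clumps and wells, in villus clumps, in 5 single cell classes on plates with a Paneth-rich well (A) and in goblet-like cells on plates without one (B). Among the bars shown, those for goblet-like cells (orange) are the lowest for AY761184 and the highest for Ang4 and Mmp7.

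In single cells of the other classes the members followed the plate. On 32 plates with no Paneth-rich well, kept cells other than goblet-like ones held 19.3 to 323 member CPM (median 58.7). On 12 plates with at least 1 such well they held 96.9 to 6775 CPM (median 569), and 5 of these plates exceeded 1000 CPM. The 2 ranges overlapped. The highest were 3 CD24 plates of mouse 2, with 3, 7 and 4 Paneth-rich wells, where every class with at least 5 cells, immune-like cells included, held 4500 to 9539 member CPM. On another CD24 plate of this mouse, with 1 Paneth-rich well, the classes differed, from 74.1 CPM in tuft-like and 137 in enteroendocrine-like cells to 977 in immune-like and 4063 in 8 enterocyte-like cells. On a CD24 plate of the same mouse with no Paneth-rich well the classes held 47.1 to 434 CPM. Goblet-like cells held 1968 CPM on plates without and 3760 CPM on plates with a Paneth-rich well.

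Shares of cells with a UMI moved likewise. On plates with a Paneth-rich well a Defa24 UMI was found in 52.8% of 657 immune-like cells (48.9% to 56.7%, median depth 946 UMIs), a type that should not express a defensin, and in 158 enterocyte-like cells (41.1%, 36.2% to 46.3%, median depth 3603). On plates without, the shares were 2.09% of 911 (1.26% to 3.24%, median depth 770) and 3.99% of 2179 (3.21% to 4.90%, median depth 2673). After thinning to 500 UMIs they were 43.3% and 15.2% on plates with a Paneth-rich well and 1.88% and 0.981% without, with 94, 10, 219 and 39 shallower cells left out. Goblet-like cells on plates without held Defa24 in 29.3% of 164 (22.4% to 36.9%, median depth 1840), Ang4 in 18.9% and Mmp7 in 12.2%, against 2.09%, 0.110% and 0.110% of immune-like cells on the same plates. AY761184 was found there in 2 goblet-like cells (1.22%) and in 6 immune-like cells (0.659%), which is too few for a comparison. Cells were pooled over mice and plates, so these shares are a description.

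**Figure D4:**
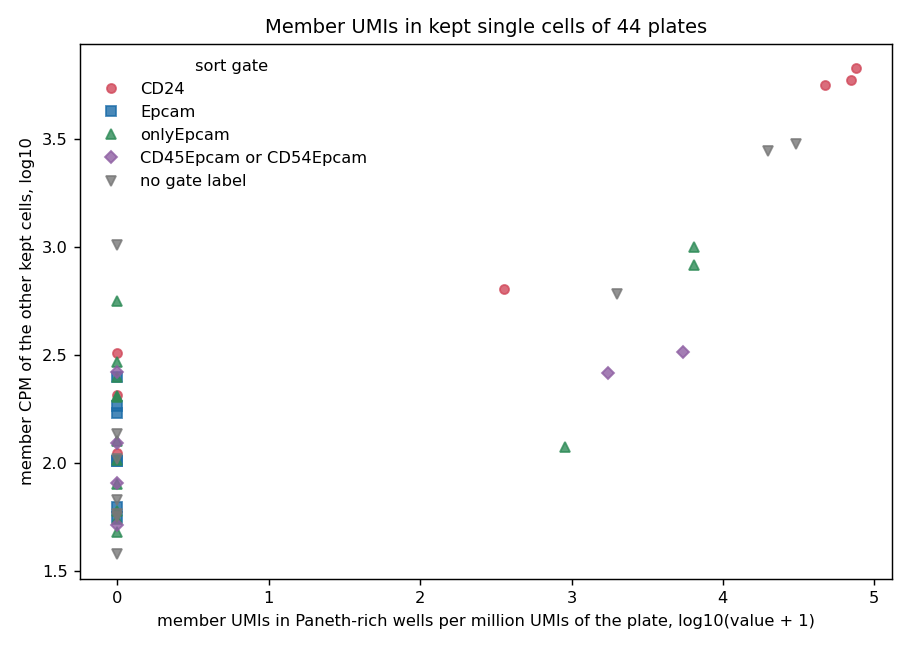
Member CPM of the kept single cells of each of 44 plates, Paneth-rich wells left out (log10), against the member UMIs of the plate's Paneth-rich wells among all its UMIs on the same CPM scale, as log10(value + 1). Colours and shapes give the sort gate. The 32 plates with no Paneth-rich well stand at 0 on the horizontal axis, and the 3 CD24 plates of mouse 2 with 3 or more such wells stand highest.

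Clump plates differed in the same direction. Villus clumps had a median of 494 member CPM over 25 plates with a Paneth-rich clump and 75.6 over 20 plates without one, with overlapping ranges (0 to 4899 and 0 to 1103). The highest were 2 plates of larger clumps of mouse 4 with 11 and 10 Paneth-rich clumps, at 4259 and 4899 CPM. All 10 plates of mouse 2, the animal with no Paneth-rich clump, were among the 20.

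CD24-based gates, which the study used for enteroendocrine and tuft cells, were compared with the Epcam gates in mice 1 and 2 (all classes pooled). The labels were EpcamLow_Cd24high and Epcam_Cd24low in mouse 1, and CD24 and Epcam in mouse 2. Summed over the members, CD24 cells stood at 270 and 3946 CPM and Epcam cells at 62.6 and 161 CPM in mice 1 and 2. CD24 was higher in both, but mouse 1 held only 17 member UMIs in 34 CD24 cells (14 of Lyz1) and 2 in 19 Epcam cells. Of 7 members 0 passed, against a background of 1.06% of 10082 genes higher. DESeq2 also gave 0 members, and 5 members had an unadjusted p under 0.05 in edgeR. With 2 mice in each gate the lack of calls does not show that the gates were alike. The log2 differences were 4.30 ± 1.71 for AY761184 (adjusted p = 0.180), 4.04 ± 1.62 for Defa17 (adjusted p = 0.184), 3.47 ± 1.39 for Lyz1 (adjusted p = 0.184) and -0.41 ± 1.33 for Ang4 (adjusted p = 0.912). With no upper limits on UMIs and genes, which brings in Paneth-rich wells (15 of the 26 were CD24 wells of mouse 2), all 9 members were positive with a median of 6.54 (3.47 over the 7 tested otherwise), and none passed. In mouse 1 the summed members then stood at 173 CPM under CD24 and 271 under Epcam, so its direction turned. On plates with no Paneth-rich well mouse 2 stood at 112 CPM under CD24 and 161 under Epcam, so the direction in that animal turned. Of all genes 107 were higher and 108 lower, and with DESeq2 size factors 81 and 181. Without mouse 1 each gate was a single animal, assumed to vary like the other gates, and 5 members were then called (AY761184, Defa17, Defa24, Itln1 and Lyz1), against 9.08% of 11485 genes higher, a fit in which mouse 2 alone stood for both gates.

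AY761185 differed between plates of the same mouse number. In Paneth-rich wells with at least 50 AY761184 UMIs, AY761185 ran from 0 to 14.3% of AY761184. On 8 plates each of the 46 wells gave 3.64% to 14.3% (3765 AY761185 UMIs), and on the other 23 plates each of the 51 wells gave 0 to 1.53% (99 UMIs). The 8 plates came from 4 mouse numbers counted per table, and these had plates of both kinds. They were clump mice 1 (1 of 5 plates), 3 (1 of 7) and 4 (2 of 7) and single cell mouse 2 (4 of 7). Plates 13 and 14 of single cell mouse 2, both of the high kind, were labelled 4 months, and its other plates here 3 months. Those labelled 3 months were of both kinds too. Single cell mouse 3 (4 plates) and clump mouse 6 (1 plate) had plates of the low kind alone. In mouse 1, for example, 12 wells of 1 plate gave 3.72% to 13.1%, and the 8 wells of the other 2 plates of larger clumps gave 0 to 0.725%. Split after the values were seen, the 2 kinds did not overlap. What sets these plates apart was not tested. By contrast, Ang5 relative to Ang4 ran continuously, from 13.5% to 50.3% over 24 plates with at least 50 Ang4 UMIs in Paneth-rich wells.

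**Figure D5:**
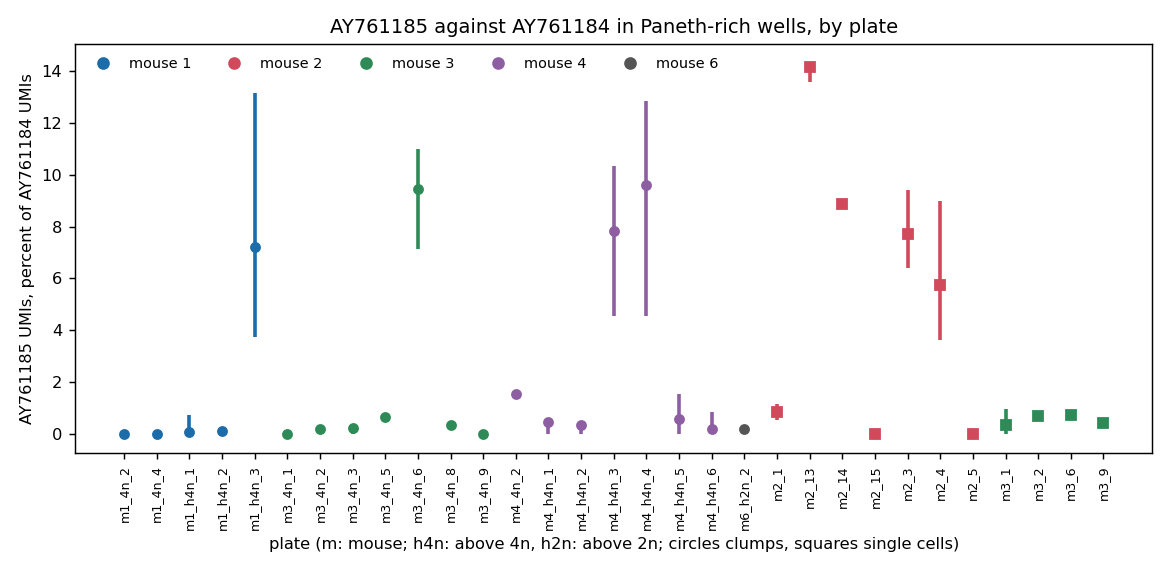
AY761185 UMIs as a percent of AY761184 UMIs in Paneth-rich wells, pooled per plate (points) with the lowest and highest well (lines), for plates of clumps (circles) and single cells (squares) coloured by mouse. Each plate lies either at 5.73% or above, with no well under 3.64%, or at 1.53% or below.

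The genes most like the members were sought over 38 plates with at least 10 crypt clumps, after the mean of each mouse and gate was subtracted, among 5311 genes with a mean of at least 20 CPM. Among the 10 highest Pearson correlations to the summed members were those of Gm15284 (0.91), Gm14851 (0.87), Gm7849 (0.86), Defa26 (0.85), Defa23 (0.85) and Gm14850 (0.84). Of the 10, 7 were in the lists of Paneth markers or other Paneth genes. The members themselves gave 0.98 (Defa24), 0.94 (Defa17), 0.91 (Itln1) and 0.88 (Lyz1) to the sum that contains them, and AY761185 gave 0.34. These correlations are across plates, which share mice.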

How the data were processed

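The deposited files are 2 tables of UMI counts per gene and well, 1 for clumps and 1 for single cells, not normalized. Per the labels and the study's methods, the authors demultiplexed reads with bcl2fastq (2.15.0.4), aligned them with STAR through zUMIs to the mouse genome (GRCm38 in the submitters' processing notes) and counted 3′ UMIs. The 9 members and all other lists were chosen with earlier results of these data known.

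The study subtracted, per plate, the mean of 4 empty wells from every gene before filtering. The files do not name these wells, so that step was left out here and approximated for the zone tests as an alternative, with the 4 emptiest wells. Clumps needed at least 200 genes, mitochondrial reads no higher than 30% of UMIs, and more than 500 UMIs. They were zoned by the correlation of 70 enterocyte landmark genes with each zone's list, and the 2% with the lowest landmark share were left out. Wells counted as single cells with 150 to 1500 genes, 200 to 7000 UMIs and a mitochondrial share of no more than 40%, and were clustered with scanpy 1.11.5 (Leiden, resolution 0.1, 25 components, 20 neighbours, 2000 variable genes, members excluded). No doublet caller was run. UMIs were summed per mouse and group (at least 5 wells) and tested with edgeR 4.0.16 (quasi-likelihood, TMM, filterByExpr, Benjamini-Hochberg threshold 0.05) across all genes. An SE is the log2 difference divided by the square root of its F statistic, and n is the number of mice. The scripts were tested on simulated data.

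Zone sums of the same mouse deviated together (r = 0.178 to 0.566, median 0.360, over 15 pairs, against -0.0939 between mice). They come from the same animal, so the mouse pairs the samples. The main tests did not use this pairing, and the replicate block entered as an alternative. With it, 4466 genes were called at the tip (3864 otherwise) and 4115 in the mid villus (3030 otherwise). The genes named are the 9 members, 4 lists of other Paneth genes and the 10 genes most like the summed members in log2(CPM + 10) over plates. Alternatives were DESeq2 (1.42.0) and, within edgeR, DESeq2 size factors, all genes unfiltered, a replicate block for the mouse, each mouse left out, and other depth, marker, zone and cell limits. Those on Paneth-rich wells, the landmark limit, mouse 6, the limit of 100 markers and a fit of the 2 cell classes alone were chosen after seeing the data. Intervals are exact binomial at 95% and, like the floor of 3 counts, cover counting error only. The median depth per mouse and gate was 775 to 7666 UMIs for kept clumps. A gene of these lists that is withheld is not reported here.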

Additional observations from a re-analysis of the deposited data

Results flagged for a closer look

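Of 70 groups of 4 or 5 mice examined, 18 had a mouse far from the others, by its gap to the nearest mouse relative to the range. The chance rate of this rule, about 1 in 20, is for independent groups of normally distributed values. These groups share mice, include the sum of the members and hold zeros, so that rate cannot be set against the 18. A group with UMIs in 1 mouse alone is flagged however few they are. In the mid villus mouse 4 stood apart for Defa17 (498 CPM, others 1.13 to 103), AY761184 (308, others 1.13 to 58.5), AY761185 (1.81, others 0) and the sum of the 9 members (2315, others 80.0 to 645), and at the villus tip for Mmp7 (47.4, others 0 to 9.19). In enteroendocrine-like cells mouse 2 stood apart for Lyz1 (399 CPM, others 0 to 37.7), Defa17 (590.0, others 0 to 53.3), Defa24 (1761, others 0 to 266), AY761184 (610.2, others 0 to 53.3), the sum of the 9 members (3605, others 113 to 443) and, with the others at 0, AY761185 (4.49), Ang4 (22.4) and Ang5 (2.24). In enterocyte-like cells mouse 2 alone had AY761185 and Ang5 UMIs (0.644 CPM each). In goblet-like cells mouse 2 was low for Mmp7 (35.6 CPM, others 150 to 157). Among the pairs of the crypt, mouse 5, with 15 clumps, was high for Defa24 (12951 CPM, others 51.7 to 3420) and Ang4 (490 CPM, others 2.61 to 139).

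Members were also present in data that entered the tests as alternatives alone. The 24 Paneth-rich wells above the limits for single cells held 223879 member UMIs. The 99 crypt clumps of mouse 6, sorted above 2n, stood at 14440 member CPM, against 190 in its mid villus and 299 in its villus tip clumps, and 1 of the 99 was Paneth-rich and held 99.02% of their member UMIs.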

How the results depend on the processing

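With Ang4 and Mmp7 included, 7 members were lower at both villus positions. Without Paneth-rich clumps these became 0 at the villus tip and 1 (Mmp7) in the mid villus. Itln1 then turned to 0.044 at the tip, and Lyz1, Defa24 and AY761184 to 0.053, 0.19 and 0.29 in the mid villus. Leaving these clumps out had to lower the crypt. The median of the members (-3.26 and -2.99) was -4.04 and -3.80 with pairs only (5 members tested), and in the mid villus -3.99 without mouse 4 and -3.61 with mouse 6. With pairs only, 2428 genes were called at the tip (3864 otherwise) and 1531 in the mid villus (3030). Leaving out 1 mouse gave 4 to 7 members and 2650 to 4184 genes at the tip, and 2 to 7 and 1918 to 3342 in the mid villus.

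Between larger clumps and pairs no gene was called. With no filter on low counts 1 member and 40 genes were, and with the mouse as a replicate block 2 members, not counted above, and 27 genes. Defa24 (-0.03) turned positive with no filter (0.29), with the replicate block (1.36), over 1000 UMIs (1.74), thinned (1.33), without Paneth-rich clumps (1.39) and with no landmark limit (0.12). Leaving out 1 mouse gave 0 members, 0 to 1 genes, and log2 differences of -0.18 to 2.44 (AY761184), -0.16 to 2.41 (Ang4), -0.13 to 2.49 (Ang5), -0.64 to 2.41 (Defa17), -1.32 to 2.26 (Defa24) and -0.13 to 2.06 (Lyz1).

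The 6 members counted between clumps with and without Paneth markers passed in each alternative, at medians of 6.44 to 10.44 (8.22 otherwise). The 35 genes became 83 with at least 100 markers and 34 to 51 with 1 mouse left out. The 9 genes called between villus clumps with and without goblet markers became 18 with DESeq2, 20 with the replicate block, 52 with no filter (1 member among them) and 7 to 15 with 1 mouse left out, which gave 0 members.

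In goblet-like cells 3 of the 5 members counted passed. This became 1 with DESeq2, 2 with classes by highest marker sum and 0 to 4 with 1 mouse left out. The 1006 genes called became 1547 with no filter, 655 on plates without Paneth-rich wells and 381 to 1145 with 1 mouse left out. AY761184 turned to 0.023 with classes by highest marker sum. Between the CD24 and Epcam gates the 215 genes became 397 with no filter (1 member among them), and 0 with the replicate block, with no upper limits and without plates with Paneth-rich wells, and 0 to 2045 genes and 0 to 5 members with 1 mouse left out. Mmp7 turned to -0.030 with DESeq2 and ran from -0.14 to 0.48 with 1 mouse left out. Without those plates Itln1, Defa17 and Defa24 turned to -1.93, -1.01 and -2.48, and with no upper limits Ang4 turned to 4.75, and the members' median went from 3.47 to 6.54. Causes were not tested unless an alternative removed samples or wells. The replicate block changed no call of a member other than AY761185 and Mmp7 by clump size and Defa17 in goblet-like cells. Low counts kept AY761185 and Ang5 out of the zone tests unless the filter was dropped.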

Other observations

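When the single cells were clustered more finely (resolution 0.5), with the members still excluded, 1 of the clusters was led by defensins. It held 332 cells with a median of 1117 UMIs, its leading genes were Defa2, Siglech and Gm15308, and 11 of 12 Paneth markers were among its 50 leading genes. Of the 332 cells 302 came from mouse 2 and 276 from the 3 CD24 plates with the most Paneth-rich wells, and 261 were immune-like at the coarser resolution. Summed, they stood at 7763 member CPM. The cluster was left unnamed.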
